A study of Mus musculus with 4 samples.

Results

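S100 proteins are small calcium-binding proteins built around EF-hand loops, and 10 of their genes were followed here in mouse colon tumours. They were chosen by gene symbol, as the rows of the deposited count table named S100a4, S100a6, S100a8, S100a9, S100a10, S100a11, S100a13, S100a14, S100a16 and S100g. Each symbol matched 1 row, so the set held 10 of the 14979 genes listed. All 10 had enough tags to be among the 14331 genes tested.

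Most S100 proteins act as dimers that change shape when calcium binds and then dock on partners such as annexins, myosin or cell surface receptors. S100A8 and S100A9 pair to form calprotectin, the zinc- and manganese-binding protein that fills the cytosol of neutrophils and is measured in stool as a sign of gut inflammation. Other members belong to fibroblasts and some immune cells (S100A4), to many epithelial and mesenchymal cells (S100A6, S100A10, S100A11, S100A13 and S100A16), or mainly to epithelium (S100A14 and S100G). S100G, also called calbindin-D9k, is a calcium buffer of absorptive gut cells under the control of vitamin D.

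All 4 mice carried colon tumours of the AOM/DSS model, in which the carcinogen azoxymethane is combined with dextran sulfate sodium, which inflames the colon. One pair was treated with an antibody against MAdCAM-1, a vascular adhesion molecule that recruits lymphocytes to the gut, and the other pair with IgG as the control. The libraries are named MAdCAM1 1, MAdCAM1 2, IgG 1 and IgG 2, and by its replicate number each was taken to be 1 mouse. Total RNA of tumour tissue was used, so each library mixes the cell types of a tumour. Strain, age, antibody dose and timing are not given in the sources used here. The assay was CAGE, cap analysis of gene expression. It counts tags from capped 5′ ends, 1 per RNA molecule captured, so that levels of different genes were compared without a correction for gene length. Levels are in CPM, a gene's tags per fixed number of library tags after scaling the libraries to each other, and a log2 fold change is MAdCAM1 over IgG. The comparison asks whether blocking MAdCAM-1 alters these genes in the tumours.

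The libraries held 14850923 to 16891234 tags. Epithelial markers checked the labelled tissue, with 10 of 10 tested and a summed level of 11248 and 9690 CPM in the MAdCAM1 libraries, against 7227 and 6462 CPM in the IgG libraries. Libraries of the same group differed in their smooth muscle markers. The 6 tested of 7 smooth muscle markers summed to 106 and 1894 CPM in MAdCAM1 1 and MAdCAM1 2, against 1675 and 90.1 CPM in IgG 1 and IgG 2. The 4 tested of 6 B and plasma cell markers summed to 45.4 and 523 CPM in the MAdCAM1 libraries, against 18.6 and 38.5 CPM in the IgG libraries. Jchain held most of this sum in MAdCAM1 1, MAdCAM1 2 and IgG 2. The B cell genes Cd79a and Cd79b overlapped between the groups and were lowest in MAdCAM1 1. Cd79a stood at 1.12 and 60.3 CPM in the MAdCAM1 libraries, against 8.76 and 2.23 CPM in the IgG libraries. In these bulk samples, fewer cells of a type and less RNA per cell cannot be told apart.

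Promoter sequences are shown for 5 members that stand for the patterns described here: the most abundant gene, the calprotectin pair, the stromal gene and the calcium buffer. They come from RefSeq on GRCm38.p6, the build of that table, whereas the tags were mapped to GRCm39. Each runs from 150 bases before the annotated gene start over its first 20 bases, and capitals mark TATAAA, TTNNGNAA (the core of C/EBP sites) and TGANTCA (AP-1), searched on both strands.
S100a6, chr3:90612744-90612913, plus strand: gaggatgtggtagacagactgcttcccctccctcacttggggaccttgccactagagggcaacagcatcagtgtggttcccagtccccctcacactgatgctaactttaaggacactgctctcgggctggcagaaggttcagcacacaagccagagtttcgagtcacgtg
S100a8, chr3:90668921-90669090, plus strand: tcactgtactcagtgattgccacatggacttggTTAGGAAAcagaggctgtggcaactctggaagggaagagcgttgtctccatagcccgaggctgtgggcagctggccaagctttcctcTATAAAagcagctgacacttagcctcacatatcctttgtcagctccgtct
S100a9, chr3:90695702-90695871, minus strand: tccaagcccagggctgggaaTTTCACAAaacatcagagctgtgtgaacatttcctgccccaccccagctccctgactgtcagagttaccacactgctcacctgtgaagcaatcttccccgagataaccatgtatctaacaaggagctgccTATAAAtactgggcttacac
S100a4, chr3:90603620-90603789, plus strand: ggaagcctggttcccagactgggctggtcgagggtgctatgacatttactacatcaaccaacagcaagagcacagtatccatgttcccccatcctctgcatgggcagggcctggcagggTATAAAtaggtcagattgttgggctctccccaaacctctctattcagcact
S100g, chrX:162964580-162964749, minus strand: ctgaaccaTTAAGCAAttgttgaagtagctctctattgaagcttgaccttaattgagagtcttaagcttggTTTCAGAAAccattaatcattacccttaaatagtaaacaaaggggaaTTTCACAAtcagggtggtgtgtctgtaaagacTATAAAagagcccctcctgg

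The letters TATAAA stood 30 bases before the annotated start of S100a8 and 31 bases before that of S100a4, and at the annotated start itself in S100a9 and S100g. Within 300 bases around the annotated starts of 8 members with an entry, TATAAA was found in 4, TTNNGNAA in S100a8, S100a9 and S100g, and TGANTCA in S100a11 and S100a16. Of all 32851 promoters in the table, 13.6% held TATAAA, 40.7% held TTNNGNAA and 7.81% held TGANTCA. The S100a6 promoter held none of these letters. S100g had TTNNGNAA at overlapping positions on the 2 strands, which are merged into 1 run of capitals. S100a10 and S100a14 were not matched.

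The family was dominated by one gene. S100a6 (chromosome 3, 90520140 to 90535843, GRCm39), also known as calcyclin, was the most abundant of all 14979 genes in each of the 4 libraries. It stood at 15597 and 14928 CPM in the MAdCAM1 libraries, against 11614 and 13167 CPM in the IgG libraries. In MAdCAM1 1 it took 1.4999% of all tags (Wilson 95% interval 1.49 to 1.51%), in MAdCAM1 2 it took 1.45% (1.44 to 1.46%), in IgG 1 it took 1.21% (1.20 to 1.21%) and in IgG 2 it took 1.35% (1.35 to 1.36%). These intervals cover counting error only. S100a6 had 2.23 and 1.86 times the tags of Malat1, the next gene, in the MAdCAM1 libraries, and 1.499 and 1.76 times in the IgG libraries. It made up 89.5% and 83.4% of the tags of the 10 members in the MAdCAM1 libraries, against 83.7% and 89.5% in the IgG libraries.

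The other members were far lower and close to each other. By the mean of 4 libraries they ran from S100a10 (538 CPM), S100a16 (453 CPM), S100a14 (334 CPM), S100a9 (262 CPM), S100a11 (225 CPM) and S100a8 (159.5 CPM) to S100a13 (94.2 CPM), S100g (53.6 CPM) and S100a4 (33.9 CPM). Only S100a6 was separated from its neighbour in this order: the ranges of the 4 libraries overlapped in each of the 8 pairs of neighbours below it. The 9 members on chromosome 3 span 3.06 Mb, from S100a13 at one end to S100a10 at the other, whereas S100g lies on the X chromosome (161744988 to 161747617, GRCm39).

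**Figure D1:**
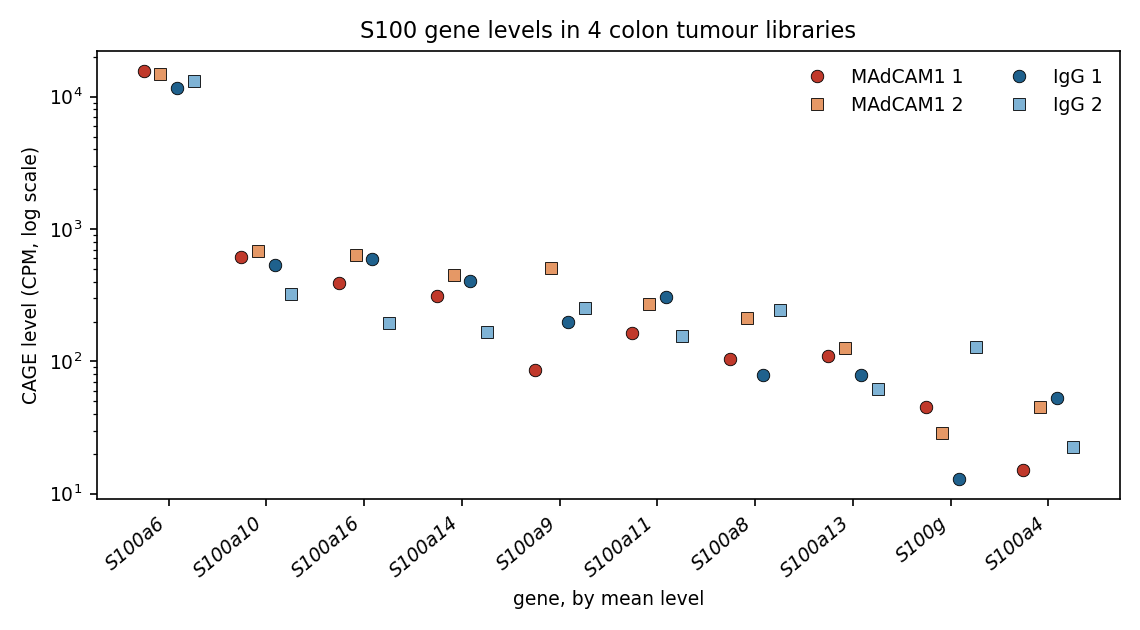
Level of each S100 gene (vertical axis, CPM on a log scale) in the 4 libraries, 1 point per mouse, MAdCAM1 libraries in red and orange and IgG libraries in blue, with genes ordered by mean level. S100a6 lies between 11614 and 15597 CPM, while S100g spreads over a 9.78-fold range.

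No member passed the test between the antibody groups. By edgeR's quasi-likelihood test with Benjamini-Hochberg adjustment over all genes, 0 of 10 members were called, at adjusted p-values from 0.677 to 0.998, where 0% of the 14331 genes tested were called in either direction. At an unadjusted p below 0.05 there was 1 member, S100a13, beside 730 higher and 261 lower genes in all (5.09% and 1.82%), and DESeq2 and edgeR's exact test called 0 members, while calling 242 (1.69%) and 161 (1.12%) of all genes. In 3 of 10 members, S100a6, S100a10 and S100a13, each MAdCAM1 library exceeded each IgG library, as was so for 19.7% of tested genes. None was lower in both MAdCAM1 libraries, as 18.7% of tested genes were, and 7 of 10 overlapped. The median log2 fold change of the members was 0.33, against -0.00 for all tested genes, and it was -0.26 without MAdCAM1 2.

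**Figure D2:**
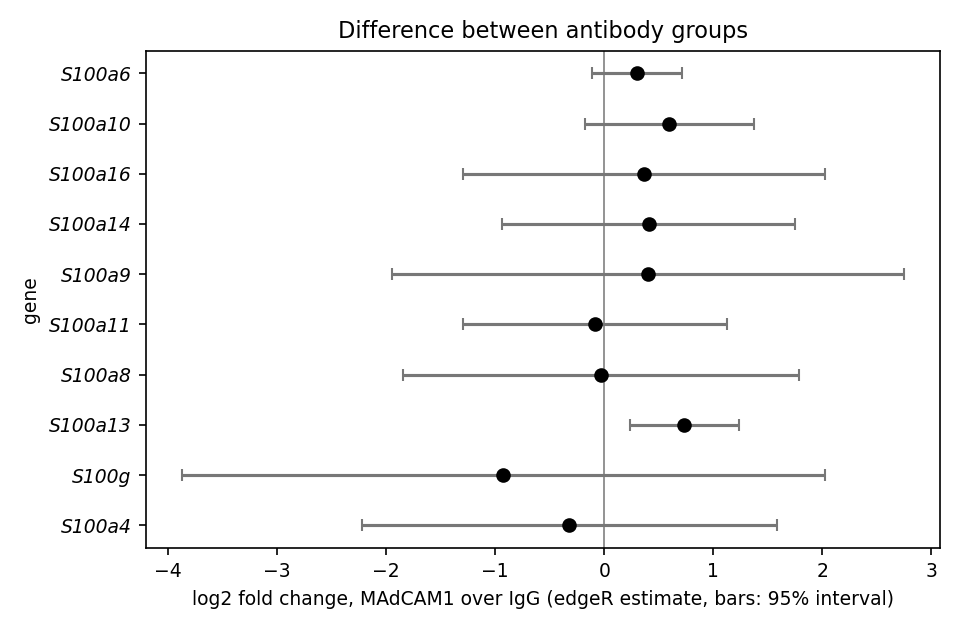
Log2 fold change of each S100 gene, MAdCAM1 over IgG, as estimated by edgeR (points) with its unadjusted 95% interval (bars), from 2 mice per group. The interval of S100a13 lies above 0 (0.23 to 1.24), those of the other 9 genes include 0, and that of S100g is the widest (-3.87 to 2.02).

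Mice of the same group differed more than the group means did in most members. The difference between the mice of a group, as an absolute log2 difference, had a median over the 10 members of 0.67 within MAdCAM1 and 1.11 within IgG, against 0.24 and 0.29 for all tested genes. For tested genes with a mean level at least that of S100a4 (5936 genes) it was 0.18 and 0.24. In 8 of 10 members the larger within-group difference exceeded the difference between group means, where this was so in 74.0% of tested genes, a share close to that of the members. The biological coefficient of variation that edgeR fitted stood above the 75th percentile of tested genes for 7 members and below the 25th for S100a6 and S100a13.

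The calprotectin genes S100a8 (chromosome 3, 90567118 to 90578128) and S100a9 (chromosome 3, 90599931 to 90603071) differed several-fold between mice and overlapped between the groups. S100a8 stood at 104 and 212 CPM in the MAdCAM1 libraries, against 78.8 and 244 CPM in the IgG libraries. S100a9 stood at 85.6 and 509 CPM in the MAdCAM1 libraries, against 198 and 253 CPM in the IgG libraries. Both were higher in MAdCAM1 2 and IgG 2 than in MAdCAM1 1 and IgG 1, although S100a9 differed only 1.275-fold between the IgG libraries. S100a9 was highest in MAdCAM1 2 and S100a8 in IgG 2. The log2 fold change was -0.03 for S100a8 (SE 0.67, edgeR adjusted p = 0.998; 95% interval of the fold 0.278 to 3.45) and 0.40 for S100a9 (SE 0.86, edgeR adjusted p = 0.955; 0.259 to 6.72). That of S100a9 was -1.399 without MAdCAM1 2, and that of S100a8 was 1.002 without IgG 2 and 0.39 without MAdCAM1 1.

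The pair did not keep one proportion. Tags of S100a8 per tag of S100a9 came to 1.22 in MAdCAM1 1 and 0.416 in MAdCAM1 2, against 0.397 in IgG 1 and 0.963 in IgG 2, a 3.06-fold range. The ratio was near 1 in MAdCAM1 1 and IgG 2 and well below 1 in MAdCAM1 2 and IgG 1, so that each group held a library of each kind. By distance between centred log2 profiles over the 4 libraries, S100a8 ranked 364th of 10411 genes in nearness to S100a9. The genes nearest to S100a9 were the Fc receptor gene Fcgr2b (distance 0.129), Zcchc24 (0.151) and the complement inhibitor gene Serping1 (0.160). Fcgr2b stood at 7.98 and 44.7 CPM in the MAdCAM1 libraries, against 18.2 and 25.1 CPM in the IgG libraries, the same order as S100a9. With 4 libraries and 10402 candidate genes, close matches of this kind are a description only.

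**Figure D3:**
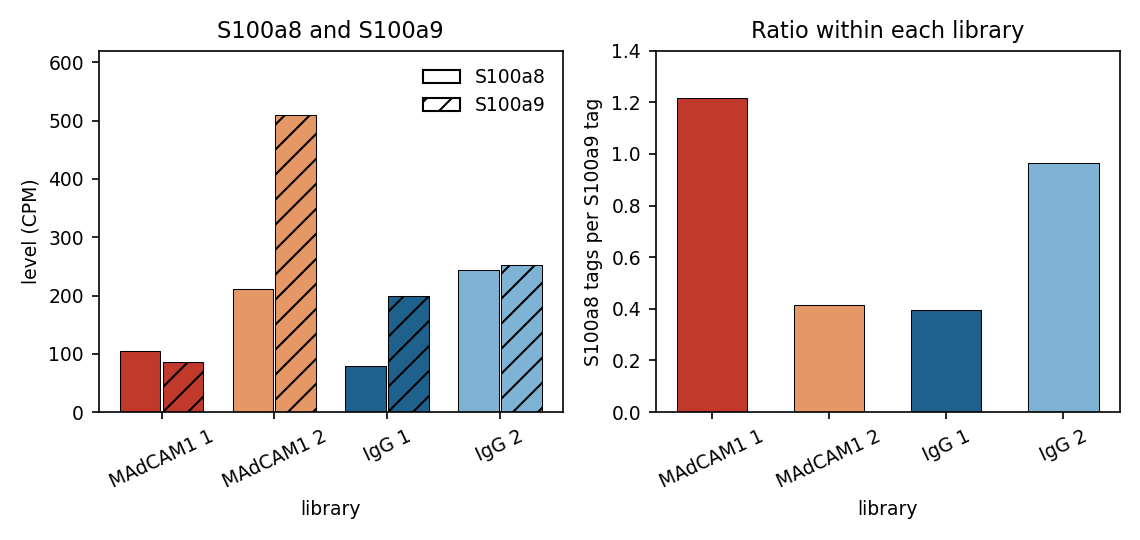
Left, levels of S100a8 (plain bars) and S100a9 (hatched bars) in CPM for each of the 4 libraries; right, tags of S100a8 per tag of S100a9 in the same libraries. S100a9 exceeds S100a8 in MAdCAM1 2 and IgG 1, where the ratio is 0.416 and 0.397.

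All tested neutrophil markers outside the family except Ly6g had a log2 fold change below 0, but 7 of the 12 overlapped between the groups. Of 18 markers 12 were tested, 4 were lower in both MAdCAM1 libraries, 1 was higher in both and 0 were called. The granule genes Camp (cathelicidin) and Ngp were among the lower, at 0.0700 and 0.194 CPM for Camp in the MAdCAM1 libraries, against 2.11 and 1.86 CPM in the IgG libraries (log2 fold change -3.81, SE 0.64; edgeR adjusted p = 0.647). These Camp levels rest on few tags, with 1 and 3 tags in the MAdCAM1 libraries and 37 and 30 tags in the IgG libraries. Csf3r, the receptor for the neutrophil growth factor G-CSF, overlapped at 6.09 and 14.1 CPM in the MAdCAM1 libraries and 7.63 and 14.1 CPM in the IgG libraries. The gene higher in both was Ly6g, a surface protein of mouse neutrophils, at 126 and 188 CPM in the MAdCAM1 libraries, against 55.9 and 35.996 CPM in the IgG libraries (log2 fold change 1.77, SE 0.33; edgeR adjusted p = 0.665). Other tests called some of these genes: Ly6g passed DESeq2 (adjusted p = 0.00034) and edgeR's exact test (adjusted p = 0.00221), and Camp passed the exact test (adjusted p = 0.000793). The mean of Ly6g over the 4 libraries was 102 CPM, against 10.5 CPM for Csf3r. The colonocyte marker Krt20 had the same order over the libraries as Ly6g. It stood at 294 and 366 CPM in the MAdCAM1 libraries, against 135 and 96.7 CPM in the IgG libraries. Which cells gave the Ly6g tags was not tested. Ly6g held most of the summed level of the list in the MAdCAM1 libraries (207 and 253 CPM, against 137 and 254 CPM in the IgG libraries). Without it the sums were 81.4 and 64.3 CPM in the MAdCAM1 libraries, against 81.0 and 218 CPM in the IgG libraries. The median log2 fold change of the 12 genes was -0.79, but 0.04 without IgG 2 and -1.41 without IgG 1. Cxcr2, the chemokine receptor of circulating neutrophils, had too few tags to be tested, with 0 and 1 tags in the MAdCAM1 libraries and 4 and 7 tags in the IgG libraries.

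Set against Csf3r, chosen from the 12 tested neutrophil markers after its values were seen, S100a8 varied less than S100a9. S100a8 tags per Csf3r tag came to 17.1 and 15.1 in the MAdCAM1 libraries, against 10.3 and 17.3 in the IgG libraries, a 1.67-fold range. S100a9 tags per Csf3r tag came to 14.1 and 36.2 in the MAdCAM1 libraries, against 26.0 and 17.9 in the IgG libraries, a 2.58-fold range. Ratios to other neutrophil markers were not computed, and Ly6g and Retnlg were ordered differently from Csf3r over the libraries. Retnlg stood at 11.1 and 13.4 CPM in the MAdCAM1 libraries, against 16.7 and 58.6 CPM in the IgG libraries. Macrophage markers, of which 7 of 12 were tested, were high in MAdCAM1 2 and IgG 2, as S100a8 was. They summed to 183 and 566 CPM in the MAdCAM1 libraries, against 193 and 552 CPM in the IgG libraries. Fibroblast markers, with 11 of 12 tested, had high sums in the same libraries. Their sums were 621 and 1953 CPM in the MAdCAM1 libraries, against 724 and 1594 CPM in the IgG libraries. Postn, Lum and Vim did not share this pattern. S100a9 differed less than both sums between the IgG libraries, at 198 and 253 CPM. The part of these cells in the S100a8 and S100a9 levels was not tested.

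No receptor or inducer of calprotectin passed the test. Of the 8 tested of 10 receptor and adaptor genes, 2 were higher in both MAdCAM1 libraries, 0 were lower in both and 0 were called. Their median log2 fold change was 0.11, and it lay between 0.06 (without IgG 2) and 0.32 (without MAdCAM1 1) when 1 library was left out. Those higher in both were Tlr4, a receptor for S100A8 and S100A9, and its partner Cd14. Tlr4 stood at 21.5 and 33.5 CPM in the MAdCAM1 libraries, against 18.7 and 17.4 CPM in the IgG libraries (log2 fold change 0.61, SE 0.27; edgeR adjusted p = 0.757). Alcam, a surface adhesion receptor, overlapped at 60.0 and 54.2 CPM in the MAdCAM1 libraries and 55.1 and 27.0 CPM in the IgG libraries. Ager, which encodes RAGE, is not among the genes tested. Of the 7 tested of 9 inducer genes, 2 were lower in both MAdCAM1 libraries and 0 higher. Their median was -0.17, but 0.03 without IgG 2, -0.45 without IgG 1 and -0.48 without MAdCAM1 1. The 2 lower genes were Tnf, at 29.6 and 22.3 CPM in the MAdCAM1 libraries against 36.7 and 36.1 CPM in the IgG libraries (log2 fold change -0.49, SE 0.20; edgeR adjusted p = 0.731), and the cytokine gene Il17a, at 1.75 and 0.194 CPM in the MAdCAM1 libraries against 3.41 and 4.64 CPM in the IgG libraries. Il17a had few tags, 25 and 3 in the MAdCAM1 libraries and 60 and 75 in the IgG libraries. Cebpb, a transcription factor of myeloid cells, stood at 56.7 and 61.4 CPM in the MAdCAM1 libraries and 58.8 and 74.3 CPM in the IgG libraries.

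S100a4 (chromosome 3, 90511074 to 90513354), whose protein binds non-muscle myosin and marks many fibroblasts, had the lowest mean over the 4 libraries, although S100g was lower in MAdCAM1 2 and IgG 1. It stood at 15.0 and 45.3 CPM in the MAdCAM1 libraries, against 52.9 and 22.5 CPM in the IgG libraries. It was high in MAdCAM1 2 and IgG 1 and low in MAdCAM1 1 and IgG 2, so the groups overlapped. The log2 fold change was -0.32 (SE 0.70, edgeR adjusted p = 0.955; 95% interval of the fold 0.214 to 2.99), with 0.41 without IgG 1 and 0.26 without MAdCAM1 1. Its target Myh9 stood at 533 and 601 CPM in the MAdCAM1 libraries, against 578 and 557 CPM in the IgG libraries.

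The nearest profiles to S100a4 were those of Flna, which encodes the actin cross-linker filamin A (distance 0.0425), of Tgfb3 (0.145) and of Palld, which encodes the actin-associated protein palladin (0.147). Flna stood at 164 and 503 CPM in the MAdCAM1 libraries, against 563 and 244 CPM in the IgG libraries. Smooth muscle markers were high in the same libraries as S100a4. Des (desmin) stood at 18.4 and 403 CPM in the MAdCAM1 libraries, against 327 and 2.10 CPM in the IgG libraries, and Tagln (transgelin) at 17.4 and 387 CPM in the MAdCAM1 libraries, against 324 and 14.7 CPM in the IgG libraries. The mesenchymal gene Vim, by contrast, was lower in both MAdCAM1 libraries (151 and 186 CPM) than in both IgG libraries (212 and 309 CPM). Of the 11 tested fibroblast markers it was the only one lower in both, and the other 10 overlapped. Dcn (decorin) stood at 58.4 and 355 CPM in the MAdCAM1 libraries and 105 and 153 CPM in the IgG libraries. Postn and Lum were high in MAdCAM1 2 and IgG 1, as S100a4 was, while most other fibroblast markers were high in MAdCAM1 2 and IgG 2. Postn stood at 9.66 and 118 CPM in the MAdCAM1 libraries, against 59.5 and 24.7 CPM in the IgG libraries. Lum stood at 1.26 and 10.7 CPM in the MAdCAM1 libraries, against 8.88 and 1.86 CPM in the IgG libraries. S100a4 tags per Vim tag came to 0.0994 and 0.244 in the MAdCAM1 libraries, against 0.249 and 0.0730 in the IgG libraries.

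S100a11 (chromosome 3, 93414382 to 93435293), whose protein binds annexin A1, was high in the same pair of libraries as S100a4, in a narrower range. It stood at 164 and 273 CPM in the MAdCAM1 libraries, against 308 and 155 CPM in the IgG libraries (log2 fold change -0.08, SE 0.44; edgeR adjusted p = 0.982). It was 0.48 without IgG 1 and 0.24 without MAdCAM1 1. Anxa1, its partner, was high in the same libraries, at 209 and 847 CPM in the MAdCAM1 libraries, against 922 and 153 CPM in the IgG libraries. The spread of Anxa1 was wider than that of S100a11, and S100a11 tags per Anxa1 tag came to 0.785 and 0.322 in the MAdCAM1 libraries, against 0.334 and 1.02 in the IgG libraries.

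S100a10 (chromosome 3, 93462213 to 93474510), also called p11, is a member that no longer binds calcium and forms a complex with annexin A2 that captures plasminogen at the cell surface. It was higher in both MAdCAM1 libraries, at 609.8 and 687 CPM, than in the IgG libraries, at 532 and 324 CPM. The log2 fold change of 0.60 (SE 0.29, edgeR adjusted p = 0.760; 95% interval of the fold 0.883 to 2.60) was 0.28 without IgG 2, the lowest library, and 0.98 without IgG 1. Its partner Anxa2 stood at 859 and 1092 CPM in the MAdCAM1 libraries, against 981 and 485 CPM in the IgG libraries. S100a10 tags per Anxa2 tag were 0.710 and 0.629 in the MAdCAM1 libraries, against 0.542 and 0.669 in the IgG libraries, a 1.31-fold range that was narrower than the 3.16-fold range of S100a11 over Anxa1.

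Of the 12 annexin genes 10 were tested, 2 were higher in both MAdCAM1 libraries, 0 were lower in both and 0 were called. Their median log2 fold change of 0.11 depended on the library left out: it was 0.70 without IgG 1 and 0.46 without MAdCAM1 1, but -0.08 without IgG 2 and -0.24 without MAdCAM1 2. Those higher in both were Anxa11, at 141 and 144 CPM in the MAdCAM1 libraries against 99.8 and 73.2 CPM in the IgG libraries (log2 fold change 0.72, SE 0.20; edgeR adjusted p = 0.691), and Anxa7 (log2 fold change 0.40, SE 0.14; edgeR adjusted p = 0.707). Anxa4 overlapped, at 253 and 205 CPM in the MAdCAM1 libraries and 251 and 362 CPM in the IgG libraries. Of 8 intracellular partners of S100 proteins 8 were tested, 1 was higher and 1 lower in both MAdCAM1 libraries. Their median of 0.01 ranged from -0.04 without IgG 2 to 0.29 without IgG 1. The higher one was Fgf1, a growth factor released with S100A13, at 8.89 and 8.29 CPM in the MAdCAM1 libraries against 5.12 and 5.69 CPM in the IgG libraries, and the lower one Cacybp, the calcyclin-binding protein gene, at 111 and 107 CPM in the MAdCAM1 libraries against 112 and 157 CPM in the IgG libraries. Sugt1, a further calcyclin partner, overlapped at 75.0 and 67.6 CPM in the MAdCAM1 libraries and 73.3 and 92.0 CPM in the IgG libraries. In the plasminogen system 4 of 6 genes were tested and all 4 overlapped. The median of -0.44 turned to 0.73 without IgG 2, and was -1.13 without IgG 1 and -0.71 without MAdCAM1 1. Plat, which encodes tissue plasminogen activator, stood at 98.3 and 37.9 CPM in the MAdCAM1 libraries and at 37.1 and 428 CPM in the IgG libraries. It was highest in IgG 2, the library lowest in S100a10. Plau (urokinase) was likewise highest there, at 23.1 and 18.8 CPM in the MAdCAM1 libraries and 13.8 and 56.5 CPM in the IgG libraries, and its receptor gene Plaur stood at 75.6 and 34.4 CPM in the MAdCAM1 libraries and 47.6 and 50.6 CPM in the IgG libraries.

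S100a14 (chromosome 3, 90434082 to 90436144), a gene of epithelia, and S100a16 (chromosome 3, 90444172 to 90450462), a broadly expressed gene, lie side by side and varied together. S100a14 stood at 313 and 448 CPM in the MAdCAM1 libraries, against 407 and 167 CPM in the IgG libraries. S100a16 stood at 388 and 633 CPM in the MAdCAM1 libraries, against 596 and 196 CPM in the IgG libraries. Both were high in MAdCAM1 2 and IgG 1 and lowest in IgG 2, and S100a16 tags per S100a14 tag came to 1.24 and 1.41 in the MAdCAM1 libraries, against 1.465 and 1.18 in the IgG libraries, within a 1.24-fold range. The log2 fold change was 0.41 for S100a14 (SE 0.49, edgeR adjusted p = 0.903; 95% interval of the fold 0.522 to 3.37) and 0.37 for S100a16 (SE 0.61, edgeR adjusted p = 0.937; 0.407 to 4.08). Without IgG 2 these became -0.10 and -0.23, and that of S100a16 was -0.03 without MAdCAM1 2.

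The summed epithelial markers were ordered differently over the libraries. Of 10 epithelial markers 9 were higher in both MAdCAM1 libraries, among them Cldn7 at 1933 and 1746 CPM in the MAdCAM1 libraries against 1117 and 1090.2 CPM in the IgG libraries (log2 fold change 0.74, SE 0.15; edgeR adjusted p = 0.665; DESeq2 adjusted p = 0.00127). Vil1 (villin) stood at 182 and 168 CPM in the MAdCAM1 libraries, against 113 and 99.9 CPM in the IgG libraries (DESeq2 adjusted p = 0.0221). S100a14 tags per Epcam tag came to 0.0982 and 0.159 in the MAdCAM1 libraries, against 0.209 and 0.0813 in the IgG libraries. They were higher in MAdCAM1 2 and IgG 1 than in MAdCAM1 1 and IgG 2. Genes of stratified epithelium, a list added after the values were seen, had their largest sums in IgG 1 and MAdCAM1 2, where S100a14 and S100a16 were high. Most of the tested genes were higher in both of these libraries than in MAdCAM1 1 and IgG 2. The exceptions were Serpinb5 (49.8 and 48.6 CPM in MAdCAM1 1 and MAdCAM1 2) and Krt13 (4.13 and 3.37 CPM). Of 20 such genes 11 were tested and all 11 overlapped between the groups, with sums of 586 and 1583 CPM in the MAdCAM1 libraries, against 2589 and 390.1 CPM in the IgG libraries. The defining genes Krt5, Krt14 and Trp63 are not among the genes tested. Smooth muscle markers were high in MAdCAM1 2 and IgG 1 too. The part of epithelial content, stratified epithelium and smooth muscle in the levels of S100a4, S100a11, S100a14 and S100a16 was not tested.

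**Figure D4:**
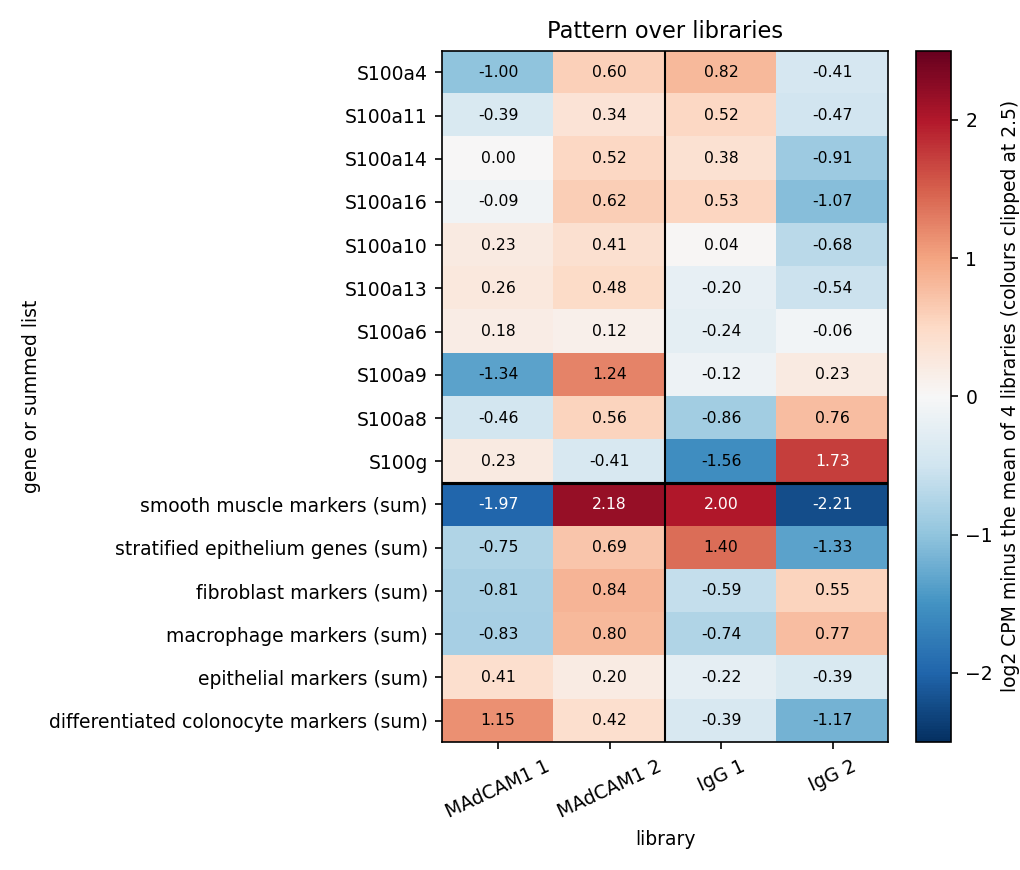
Levels of the 10 S100 genes (above the line) and summed levels of 6 marker lists (below it) in each library, as log2 CPM minus the mean of the 4 libraries. S100a4, S100a11, S100a14 and S100a16 are above their mean in MAdCAM1 2 and IgG 1, as are the smooth muscle sum (2.18 and 2.005) and the stratified epithelium sum (0.69 and 1.396), whereas S100a8 and the macrophage sum are above theirs in MAdCAM1 2 and IgG 2.

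S100a13 (chromosome 3, 90416091 to 90431912), whose protein helps to export the signal proteins FGF1 and interleukin 1 alpha, had the smallest p of the 10 members. It stood at 109 and 126 CPM in the MAdCAM1 libraries, against 79.1 and 62.3 CPM in the IgG libraries. The groups did not overlap, and each was narrow. The log2 fold change was 0.73 (SE 0.19), at an unadjusted quasi-likelihood p of 0.0143 and an edgeR adjusted p of 0.677, and the adjusted p was 0.147 by DESeq2 and 0.365 by the exact test. It stayed between 0.57 and 0.90 when each library was left out in turn. The gene overlaps S100a1 and Chtop on the opposite strand, and whether tags were assigned by strand is not given in the sources used here, so tags of these genes cannot be told apart with certainty. S100a1, a further gene of the family outside the 10, stood at 114 and 111 CPM in the MAdCAM1 libraries, against 67.7 and 74.8 CPM in the IgG libraries (log2 fold change 0.66, SE 0.13; edgeR adjusted p = 0.665), and it passed DESeq2 (adjusted p = 0.0430). Chtop was lower in both MAdCAM1 libraries, at 58.7 and 44.7 CPM, than in the IgG libraries, at 60.0 and 62.8 CPM.

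S100a6 differed little between mice and slightly between groups, with a log2 fold change of 0.30 (SE 0.15, edgeR adjusted p = 0.763; 95% interval of the fold 0.923 to 1.64). The mice of the MAdCAM1 group differed 1.05-fold and those of the IgG group 1.13-fold. Leaving out each library in turn kept the value between 0.20 and 0.39. Like S100a6, S100a10 and S100a13, 9 of 10 epithelial markers were higher in both MAdCAM1 libraries, with a median log2 fold change of 0.65 and sums of 11248 and 9690 CPM in the MAdCAM1 libraries, against 7227 and 6462 CPM in the IgG libraries. The part of epithelial content in the levels of S100a6, S100a10 and S100a13 was not tested.

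S100g showed the widest spread of the family. It stood at 45.0 and 28.9 CPM in the MAdCAM1 libraries, against 13.03 and 127 CPM in the IgG libraries, so that the IgG mice differed 9.70-fold and enclosed the MAdCAM1 values. The log2 fold change of -0.93 (SE 1.08, edgeR adjusted p = 0.900; 95% interval of the fold 0.0682 to 4.07) rested on IgG 2, since it was 1.495 without that library. The gene overlaps Ctps2 on the opposite strand, which stood at 38.7 and 38.9 CPM in the MAdCAM1 libraries and at 41.3 and 43.8 CPM in the IgG libraries. The nearest profiles were those of the heparan sulfate enzyme gene Hs3st3b1 (distance 0.226), of Inhba (0.575) and of Mmp9 (0.635). Hs3st3b1 stood at 13.02 and 8.68 CPM in the MAdCAM1 libraries, against 4.55 and 42.4 CPM in the IgG libraries.

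Other genes of vitamin D response and calcium uptake did not share the IgG 2 peak. Of 8 genes on that list 5 were tested, 2 were higher in both MAdCAM1 libraries, 0 were lower in both and 0 passed the test. Their median log2 fold change was 0.49, with 0.86 without MAdCAM1 1 and 0.27 without MAdCAM1 2. Trpv6, the calcium channel through which calcium enters absorptive cells, stood at 35.3 and 23.3 CPM in the MAdCAM1 libraries, against 13.7 and 12.0 CPM in the IgG libraries (log2 fold change 1.19, SE 0.27; edgeR adjusted p = 0.665). Vdr, the vitamin D receptor, stood at 35.9 and 42.6 CPM in the MAdCAM1 libraries, against 22.6 and 5.75 CPM in the IgG libraries (log2 fold change 1.47, SE 0.69; edgeR adjusted p = 0.760). Atp2b1, a calcium pump gene, stood at 121 and 127 CPM in the MAdCAM1 libraries and 127 and 90.2 CPM in the IgG libraries. Vdr was lowest in IgG 2, where S100g was highest. S100g tags per Trpv6 tag came to 1.28 and 1.24 in the MAdCAM1 libraries, against 0.954 and 10.6 in the IgG libraries. Differentiated colonocyte markers, with 8 of 9 tested, summed to 1159 and 696 CPM in the MAdCAM1 libraries, against 397 and 231 CPM in the IgG libraries, and 8 of these 8 were lowest in IgG 2. Krt20 stood at 294 and 366 CPM in the MAdCAM1 libraries, against 135 and 96.7 CPM in the IgG libraries (log2 fold change 1.51, SE 0.24; edgeR adjusted p = 0.640), and passed DESeq2 (adjusted p = 4.12e-05) and the exact test (adjusted p = 0.00349). Slc26a3, a chloride exchanger gene, stood at 22.8 and 10.9 CPM in the MAdCAM1 libraries, against 1.99 and 0.495 CPM in the IgG libraries, and passed both of these tests too. The part of colonocyte content in the S100g level was not tested.

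Of the remaining lists, the 4 tested of 6 T cell markers and the 4 tested of 5 endothelial markers overlapped between the groups throughout. Their sums were 12.3 and 41.8 CPM for T cells in the MAdCAM1 libraries, against 23.8 and 24.4 CPM in the IgG libraries, and 13.3 and 49.3 CPM for endothelium in the MAdCAM1 libraries, against 23.3 and 38.2 CPM in the IgG libraries. Both sums were highest in MAdCAM1 2 and lowest in MAdCAM1 1, as S100a9 was. Cd3d stood at 3.22 and 11.9 CPM in the MAdCAM1 libraries and 5.18 and 6.43 CPM in the IgG libraries, and Pecam1 at 4.97 and 18.7 CPM in the MAdCAM1 libraries and 8.59 and 10.6 CPM in the IgG libraries. Of 16 other genes with an S100 fold or name, 2 were tested, S100a1 and S100pbp, and S100pbp overlapped at 18.1 and 15.7 CPM in the MAdCAM1 libraries against 17.9 and 21.3 CPM in the IgG libraries.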

How the data were processed

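Per the labels' protocols, CAGE libraries were made by cap-trapping and read from one end. BWA 0.7.17, then HISAT2 2.0.5 for what was left, placed the tags on GRCm39, and the authors' RECLU pipeline clustered them, dropped weak, irreproducible or long clusters and kept regions that replicates shared, with bedtools 2.12.0. For differential expression the labels give edgeR 3.22.5. How clusters were assigned to genes, and by which strand, is not given in the sources used here. The deposited values are raw tag counts per gene, and 1 tag is 0.0592 to 0.0673 CPM before scaling.

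Here, filterByExpr by group kept 14331 of 14979 genes, and counts were scaled by TMM and compared by edgeR 4.0.16 under R 4.3.3 with the robust quasi-likelihood test, MAdCAM1 minus IgG, adjusted over all tested genes at a threshold of 0.05. The fit compares mean levels, so its sign can differ from that of the mean of logs. The SE is the absolute log2 fold change over the square root of F, and 95% intervals use the total degrees of freedom. Profiles used log2 CPM with a prior count of 2. The test was run on simulated data with planted changes, and how many of them it recovered is not reported here. Members, lists and rules were chosen with earlier results of these data known. All members were named, with up to 3 genes of each partner list and 2 of each marker list by smallest p (B and plasma, endothelial and T cell markers in part; 1 macrophage marker is not reported here), and the 3 nearest profiles to S100a9, S100a4 and S100g among genes of mean CPM at least 10. Anxa1, Anxa2, Myh9, Csf3r, Ngp, Cxcr2, Retnlg, Postn, Lum, Cd79a, Cd79b, Epcam, Malat1, Chtop and Ctps2 were named outside this rule, after their values were seen. No batch is given, and p-values measure only the spread between these libraries. Gene positions are from GENCODE M39 on GRCm39, promoters from RefSeq on GRCm38.p6. DESeq2 1.42.0, limma-voom (limma 3.58.1), other scalings and filters, a replicate block and each library left out were the alternatives.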

Additional observations from a re-analysis of the deposited data

How the results depend on the processing

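Of 130 refits of single members under 13 alternatives, 115 kept direction and side of the threshold and 15 changed direction, 11 of them on leaving out a library, and 0 members were called in any. S100a6, S100a10 and S100a13 kept their direction in all 13. Calls over all genes numbered 0 in the main test, 242 by DESeq2, 161 by edgeR's exact test and 0 under the scalings, filters, limma-voom, the replicate block and each library left out; the cause was not tested. The median of the members (0.33) lay between -0.26 and 0.52 with each library left out. In that setting S100a4 ranged from -1.33 to 0.41, S100a8 from -0.64 to 1.002, S100a9 from -1.399 to 1.17, S100a11 from -0.50 to 0.48, S100a14 from -0.10 to 1.18, S100a16 from -0.23 to 1.37 and S100g from -1.80 to 1.495 (log2 fold changes).

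By limma-voom the direction turned for S100a8 (0.10) and S100a9 (-0.11). The labels tie replicate numbers to no shared litter, batch or day. The deviations of same-numbered libraries from their group means correlated at -0.135 across genes, and with 2 libraries per group this single value cannot show whether anything was shared. With the replicate block the values were 0.10 for S100a8 and -0.10 for S100a9, and 0 genes were called. Library size scaling shifted the median of all genes to -0.10. List medians moved by more than the spread between mice in 15 of 112 refits, all on leaving out 1 library. Medians of cell marker lists that moved or turned included smooth muscle (-3.21 to 4.13), fibroblast (-1.03 to 0.99) and macrophage (-1.30 to 0.64) markers, whereas that of epithelial markers lay between 0.48 and 0.72. With 2 mice per group, the intervals of S100g, S100a9, S100a4, S100a8, S100a11 and S100a16 each take in a doubling and a halving.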
